A study of Homo sapiens with 6 samples.

Results

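The regions described here are the Polycomb-related peaks of human chromosome 7 in ACHN cells, a cell line derived from a human renal carcinoma. They were chosen by a measured property, namely that the authors' peak caller placed them on chromosome 7, and identical repeated lines were counted once. This gave 22628 peaks of 213202 on chromosomes 1 to 22 and X. Chromosome 7 was taken up with its low number of peaks in the knockout already known, so the knockout-to-wild-type values below are a description and carry no test.

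Chromatin was immunoprecipitated with an antibody against the histone mark H3K27me3 or against EZH2, and sequenced. The cells were either ZCCHC8-KO (KO below, with the ZCCHC8 gene knocked out by an unnamed guide) or ZCCHC8-WT (WT, the control cells), and no other allele or treatment is named for either. ZCCHC8 is the scaffold of the NEXT complex, which hands short-lived nuclear RNAs to the RNA exosome, and the series asks how NEXT relates to H3K27me3. Each antibody was used on 1 library of each genotype, and each genotype had 1 input. Differences between genotypes therefore rest on single libraries without replicates. The sources used here do not say whether KO cells are 1 clone or a pool, or how deeply the libraries were sequenced. The loss of ZCCHC8 cannot be checked from peak positions. Copy number along chromosome 7 was not measured.

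EZH2 is the enzyme of PRC2, a Polycomb complex, and places the trimethyl mark H3K27me3 on histone H3. The mark is known for covering silent developmental genes and long gene-poor stretches, and it can be read by PRC2 itself, which lets marked domains spread and persist. Chromosome 7 carries the HOXA homeobox cluster, the imprinted KLF14 and MEST region, long neuronal genes, and the EZH2 gene itself.

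The promoters of 5 genes on which the results below turn are shown first, because they span the range of sequence and of KO to WT difference on the chromosome. Each run gives the 250 bases upstream of the annotated start, 5′ to 3′ on the gene's strand, from RefSeq (GRCh38.p14, the same coordinates as the hg38 build of the peaks), with every CG dinucleotide in capitals. CG reads the same on both strands, so the count holds for either. PTPRZ1 lies at chr7:121872911-121873160 (plus strand), SLC26A3 at chr7:107803224-107803473 (minus), GBX1 at chr7:151167695-151167944 (minus), EVX1 at chr7:27242552-27242801 (plus) and KLF14 at chr7:130734208-130734457 (minus).
PTPRZ1: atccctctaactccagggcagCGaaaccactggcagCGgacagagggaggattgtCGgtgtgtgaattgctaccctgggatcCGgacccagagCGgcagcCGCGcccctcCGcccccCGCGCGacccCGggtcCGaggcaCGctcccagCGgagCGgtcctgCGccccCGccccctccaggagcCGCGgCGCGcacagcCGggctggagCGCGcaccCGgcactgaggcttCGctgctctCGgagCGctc
SLC26A3: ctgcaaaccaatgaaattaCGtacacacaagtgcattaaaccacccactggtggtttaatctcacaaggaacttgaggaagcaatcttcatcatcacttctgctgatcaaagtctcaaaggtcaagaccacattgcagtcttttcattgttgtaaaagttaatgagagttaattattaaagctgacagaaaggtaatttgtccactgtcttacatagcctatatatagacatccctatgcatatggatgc
GBX1: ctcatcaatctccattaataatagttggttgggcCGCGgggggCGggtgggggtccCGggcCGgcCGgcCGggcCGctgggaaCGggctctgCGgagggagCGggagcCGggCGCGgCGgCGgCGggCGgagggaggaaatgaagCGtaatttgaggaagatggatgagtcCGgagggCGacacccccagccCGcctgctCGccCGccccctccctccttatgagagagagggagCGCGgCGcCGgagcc
EVX1: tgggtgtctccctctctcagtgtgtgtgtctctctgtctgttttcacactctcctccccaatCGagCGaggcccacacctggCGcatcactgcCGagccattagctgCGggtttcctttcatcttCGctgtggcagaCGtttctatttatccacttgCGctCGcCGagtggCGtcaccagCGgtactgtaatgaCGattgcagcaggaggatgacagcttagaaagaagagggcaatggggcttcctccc
KLF14: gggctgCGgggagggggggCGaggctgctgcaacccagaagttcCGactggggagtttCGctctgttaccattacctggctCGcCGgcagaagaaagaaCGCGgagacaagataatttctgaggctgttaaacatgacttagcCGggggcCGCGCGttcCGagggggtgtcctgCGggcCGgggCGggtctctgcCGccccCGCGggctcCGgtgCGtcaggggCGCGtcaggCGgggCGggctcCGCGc
These runs hold 29 CG in PTPRZ1, 1 in SLC26A3, 28 in GBX1, 13 in EVX1 and 27 in KLF14. Of 938 protein-coding genes on the chromosome, 799 matched the RefSeq promoter table, their median was 17 CG in 250 bases, and 97.7% of them held at least 1.

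The 5 promoters themselves were mostly bare, with peaks beside them. In PTPRZ1, a receptor-type phosphatase of glia, the nearest H3K27me3 peak lay 849 bases away in KO and 480 bases away in WT, where it was 1043 bp long. The nearest EZH2 peak of the PTPRZ1 promoter was 8783 bases away in KO and 16 bases away in WT. SLC26A3, an intestinal chloride-bicarbonate exchanger whose promoter is poor in CG, was the exception for the mark, with an H3K27me3 peak across 225 of its 250 bases in KO and across 126 in WT. At EVX1, the homeobox gene beside the HOXA cluster, a KO EZH2 peak covered 154 promoter bases, while the nearest WT EZH2 peak stood 122 bases off. At KLF14 the nearest H3K27me3 peak began 401 bases away in KO and 367 bases away in WT. Over all 799 promoters, H3K27me3 peaks touched 10 in KO and 10 in WT, and EZH2 peaks touched 4 in KO and 5 in WT.

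Chromosome 7 had fewer peaks of both kinds in KO than in WT, and by more than the rest of the genome. H3K27me3 peaks numbered 4897 in KO and 12255 in WT, a KO/WT ratio of 0.400, and covered 1.65 Mb in KO and 4.81 Mb in WT. EZH2 peaks numbered 1513 in KO and 3963 in WT, a ratio of 0.382, and covered 0.421 Mb in KO and 1.03 Mb in WT. Over the other chromosomes together the ratios were 0.803 for H3K27me3 and 0.674 for EZH2. Chromosome 7 was the lowest of 23 for either antibody. The next was chromosome 4 at 0.497 for H3K27me3, whereas for EZH2 chromosome X stood at 0.383, level with chromosome 7.

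**Figure D1:**
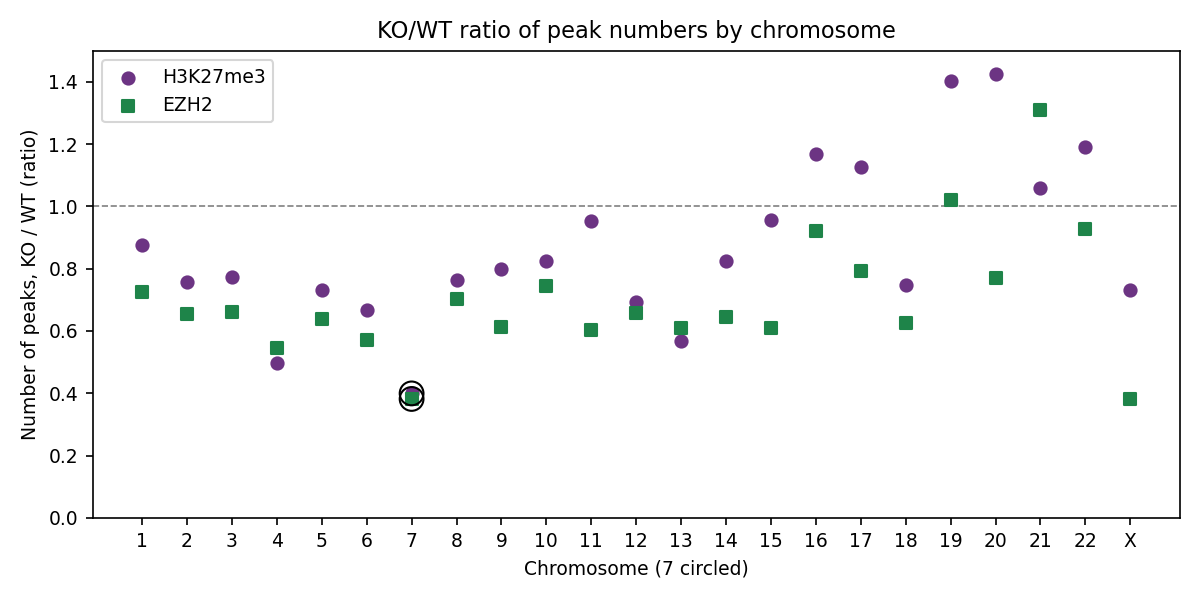
Number of peaks in KO divided by the number in WT (vertical axis, a ratio) for each of chromosomes 1 to 22 and X (horizontal axis), with circles for H3K27me3 and squares for EZH2 and 1 library behind each number. The ringed chromosome 7 points, at 0.400 for H3K27me3 and 0.382 for EZH2, are the lowest of either kind, with chromosome X next to the EZH2 point at 0.383.

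The WT lists were rich in chromosome 7 to begin with. The chromosome held 7.01% of all H3K27me3 peaks in KO (6.82 to 7.20, exact Clopper-Pearson 95% interval, which covers counting error only) and 13.2% in WT (12.9 to 13.4). For EZH2 it held 7.74% in KO (7.37 to 8.12) and 12.9% in WT (12.5 to 13.3). It carries 4.70% of the protein-coding genes, so its share exceeded its share of genes in all 4 lists, and by share it was the fifth chromosome in both KO lists and the second in both WT lists.

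High-scoring peaks took a larger share of the list on chromosome 7 than on the other chromosomes pooled in WT, and a smaller one in KO. The score comes from the authors' lists without a definition, and it serves here only to rank or filter peaks. On chromosome 7, 2.57% of KO and 26.2% of WT H3K27me3 peaks had a score of 10 or more. On the other chromosomes these shares were 3.58% in KO and 14% in WT. EZH2 peaks with such scores made up 3.17% in KO and 17.7% in WT on chromosome 7, and 4.10% in KO and 11.5% in WT elsewhere. Ranked among 23 chromosomes by this share, chromosome 7 came next after chromosome 12 in WT for both antibodies. In KO it was number 10 for H3K27me3 and number 13 for EZH2. The median of the other chromosomes in KO was 1.73% for H3K27me3, under the value of chromosome 7, and 3.62% for EZH2, over it.

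Among peaks with a score of 10 or more, chromosome 7 had 126 H3K27me3 peaks in KO and 3205 in WT, a ratio of 0.0393, and 48 EZH2 peaks in KO and 703 in WT, a ratio of 0.0683. On the other chromosomes the same filter gave ratios of 0.205 for H3K27me3 and 0.240 for EZH2, so the filter lowered the ratio everywhere, and chromosome 7 was then the third lowest for H3K27me3 and the second lowest for EZH2. Median scores were 6 in KO and 8 in WT for H3K27me3, and 5 in KO and 8 in WT for EZH2, and a given score may not mean the same in the lists of different libraries.

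Wide H3K27me3 peaks were fewer in KO by a larger factor than H3K27me3 peaks of all widths. Peaks of 500 bp or more made up 13.4% of the KO and 19.7% of the WT H3K27me3 list on chromosome 7, and 12.7% in KO and 12.4% in WT elsewhere. Chromosome 12, at 20.6% in KO and 20.2% in WT, had more in either genotype. The KO/WT ratio of such peaks was 0.271 on chromosome 7, and of 1 kb or more there were 76 in KO and 485 in WT. EZH2 peaks were short in both genotypes, with medians of 233 bp in KO and 213 bp in WT, and 12 in KO and 25 in WT reached 1 kb. The widest H3K27me3 peak of either genotype lay beside KLF14, an imprinted Krüppel-like transcription factor gene. It ran over 4453 bp in KO (chr7:130734858-130739310, score 12) and over 7406 bp in WT (chr7:130734824-130742229, score 18).

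**Figure D2:**
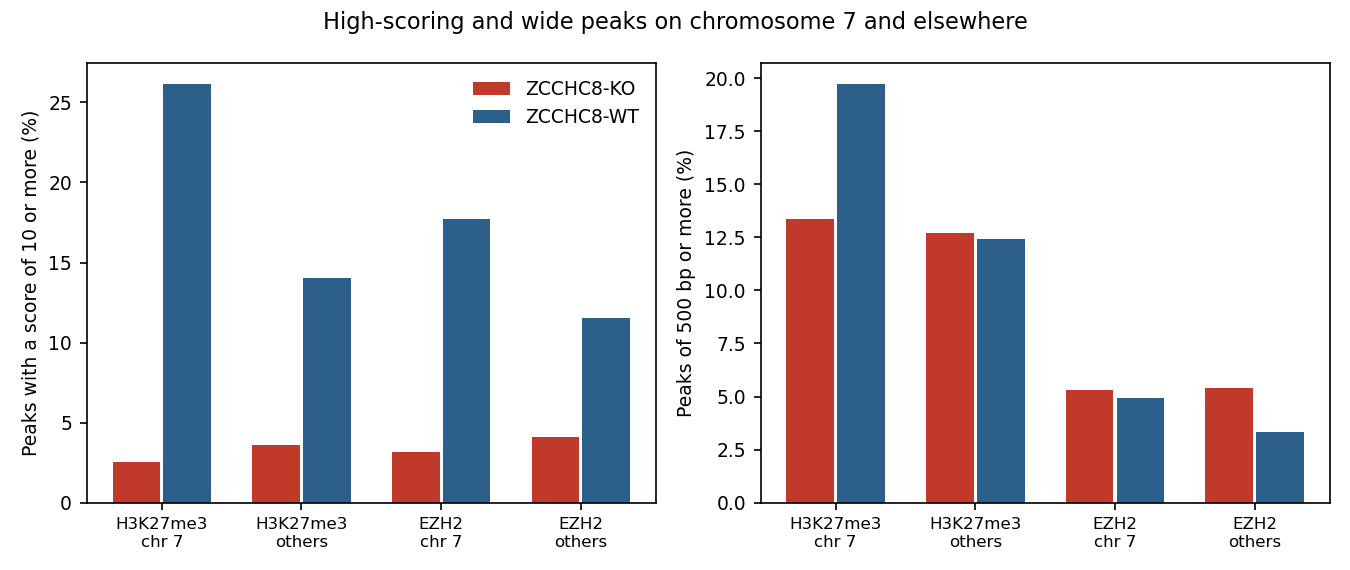
Share of peaks with a score of 10 or more (left panel, percent) and share of peaks of 500 bp or more (right panel, percent) on chromosome 7 and on the other chromosomes, with KO bars left of WT bars and 1 library per bar. WT H3K27me3 on chromosome 7 is above the other chromosomes pooled in both panels, at 26.2% for scores and 19.7% for widths, against 14% and 12.4% of WT peaks elsewhere, while chromosome 12 alone had 27.3% and 20.2%.

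Both arms had fewer peaks in KO, the long arm more so. Arms were split at 60 Mb, and peaks were placed by their midpoint. The p arm held 2258 H3K27me3 peaks in KO and 4798 in WT (ratio 0.471), and the q arm 2639 in KO and 7457 in WT (ratio 0.354). For EZH2 the p arm held 653 in KO and 1481 in WT (ratio 0.441), and the q arm 860 in KO and 2482 in WT (ratio 0.346). In WT the arms were alike in density, with 80.0 H3K27me3 peaks per Mb on p and 74.6 on q, and 24.7 EZH2 peaks per Mb on p and 24.8 on q. In KO they were not: H3K27me3 reached 37.6 per Mb on p and 26.4 on q, and EZH2 10.9 on p and 8.60 on q. With 1 library per genotype this difference between arms has no test.

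Along the chromosome the difference ran in long blocks. In 1-Mb bins with at least 10 peaks over both genotypes, the KO/WT ratio for H3K27me3 was under 0.5 in 84 of 135 bins (62.2%), against 25.7% of bins over all chromosomes. It was over 2 in 2 of the 135 (1.48%), against 3.35%. For EZH2 it was under 0.5 in 100 of 141 bins (70.9%), against 37.3%, and over 2 in 3 bins (2.13%), against 3.98%. The median bin ratio was 0.375 for H3K27me3, against 0.833 on the other chromosomes, and 0.328 for EZH2, against 0.625. No other chromosome had as high a share of low bins, chromosome 4 coming next with 53.4% for H3K27me3 and 46.0% for EZH2.

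The bins differed widely among themselves. H3K27me3 peaks per bin ranged from 0 to 205 in KO with a median of 20, and from 0 to 408 in WT with a median of 66.5. EZH2 peaks per bin ranged from 0 to 62 in KO with a median of 7, and from 0 to 95 in WT with a median of 22.5. The H3K27me3 ratio was under 0.1 in 23 bins and over 1 in 11, so H3K27me3 peaks were nearly gone from some bins in KO and as many as in WT in others.

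**Figure D3:**
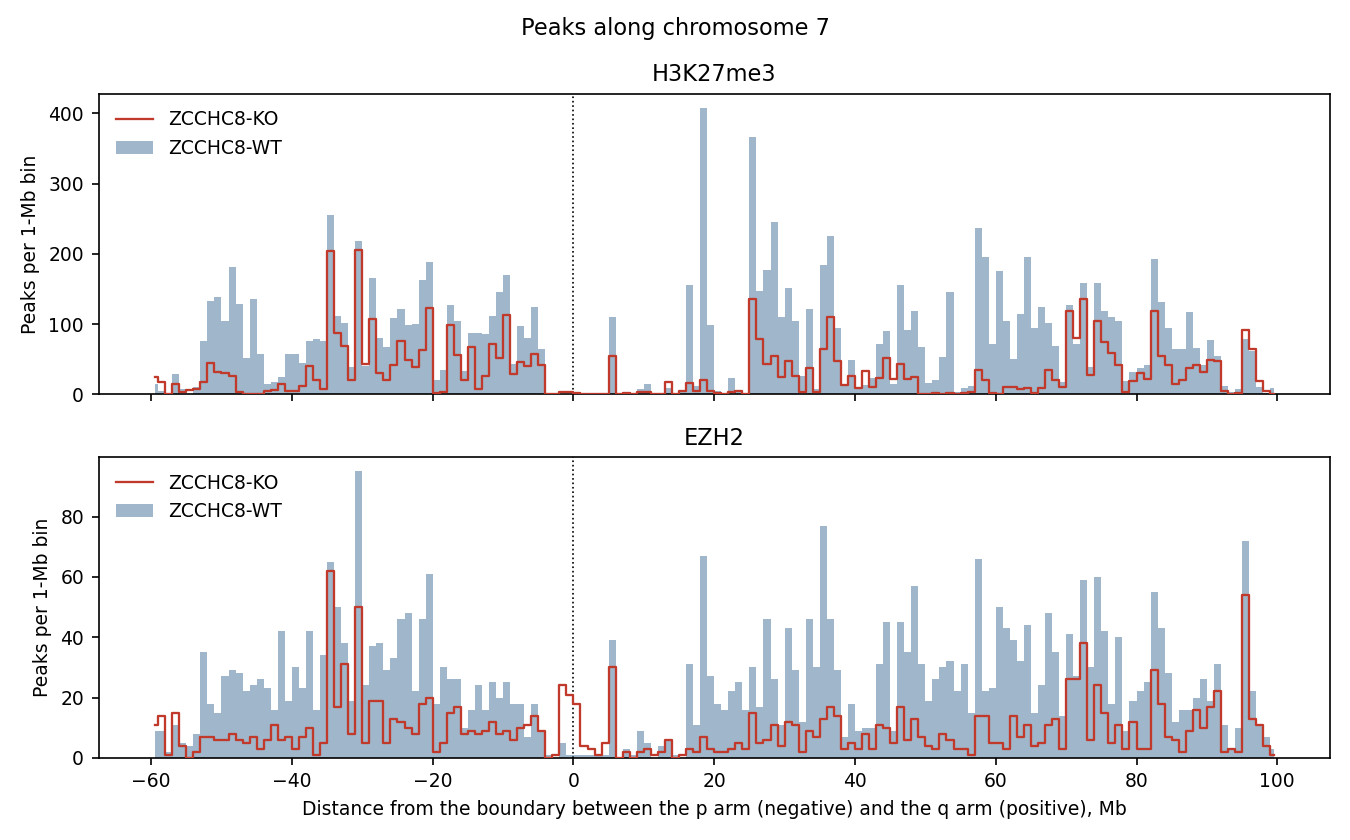
Peaks per 1-Mb bin (vertical axis, number) along chromosome 7, placed by distance from the boundary between the p arm (negative) and the q arm (positive) in Mb, with KO as a red outline and WT as filled bars, H3K27me3 above and EZH2 below. The KO outline stays under the WT bars over most of the chromosome, nears them in blocks of the p arm such as that of the HOXA cluster, and exceeds them for EZH2 at the boundary itself.

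The longest run of neighbouring bins that each had 10 or more peaks and an H3K27me3 ratio under 0.25 spanned 117 to 127 Mb on the q arm. Its 10 bins held 105 peaks in KO and 1362 in WT, a ratio of 0.0771. The block holds 33 protein-coding genes, among them WNT2 (a WNT ligand), CFTR (the chloride channel of cystic fibrosis), KCND2 (a voltage-gated potassium channel), PTPRZ1 and GRM8 (a glutamate receptor). The next run, from 107 to 114 Mb, contains SLC26A3, SLC26A4 and the neural adhesion gene NRCAM, and held 52 peaks in KO and 512 in WT. The 3 bins between these runs held 6 peaks in KO and 24 in WT, and only the bin from 115 to 116 Mb met that rule. From 107 to 127 Mb as a whole there were 163 peaks in KO and 1898 in WT, a ratio of 0.0859. On the p arm a run from 11 to 16 Mb, over THSD7A, DGKB and MEOX2, held 31 peaks in KO and 556 in WT. For EZH2 the longest run by the same rule went from 76 to 85 Mb over MAGI2 and the semaphorin genes SEMA3A, SEMA3C and SEMA3E, with 30 peaks in KO and 233 in WT.

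The 5 single bins with the largest H3K27me3 deficit held 1 to 5 protein-coding genes each. The bin from 78 to 79 Mb, which lies over MAGI2, a synaptic scaffold gene, held 20 peaks in KO and 408 in WT. The SEMA3D bin, from 85 to 86 Mb, held 136 in KO and 366 in WT, so it stayed well marked in KO. The bin from 117 to 118 Mb, with WNT2, CFTR and CTTNBP2, held 34 in KO and 237 in WT, and the bin from 88 to 89 Mb, with ADAM22 and ZNF804B, 54 in KO and 245 in WT. The bin from 124 to 125 Mb, with GPR37 and the telomere protein gene POT1, held 9 in KO and 195 in WT. Both the MAGI2 bin and the WNT2 bin were also among the 5 with the largest EZH2 deficit, with 7 EZH2 peaks in KO and 67 in WT over MAGI2, and 14 in KO and 66 in WT over WNT2. The largest EZH2 deficit lay in the bin from 95 to 96 Mb, over the paraoxonase genes and DYNC1I1, with 13 in KO and 77 in WT.

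Other stretches had nearly as many H3K27me3 peaks in KO as in WT. From 25 to 32 Mb, a block that contains the HOXA cluster, EVX1 and CHN2, there were 735 peaks in KO and 933 in WT, a ratio of 0.788. From 129 to 137 Mb, around KLF14 and PLXNA4, there were 611 in KO and 800 in WT, a ratio of 0.764. Few bins were higher in KO. The largest excess lay within the q arm, from 101 to 102 Mb, with 33 peaks in KO and 13 in WT. The others of the 5 bins with the largest excess lay near the chromosome ends. The bin from 1 to 2 Mb held 17 in KO and 4 in WT, and the bin from 155 to 156 Mb, with the developmental genes EN2 and SHH, held 91 in KO and 79 in WT. In that EN2 bin KO peaks were more numerous but covered less, 34096 bp in KO and 41464 bp in WT.

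More EZH2 peaks were called in KO than in WT at the arm boundary, which lies at the centromere. Reads from repeated centromeric sequence can be placed at more than 1 site, and whether this shaped these peaks was not tested. Other centromeres were not counted. Between 57 and 62 Mb, KO had 68 EZH2 peaks and WT had 8, while H3K27me3 had 8 in KO and 5 in WT. The bins from 58 to 61 Mb contain no protein-coding gene and held 63 EZH2 peaks in KO and 7 in WT. Scores there reached 69 in KO and 10 in WT, and this stretch held 12 of the chromosome's 13 KO EZH2 peaks that scored 15 or more. Of these 13, 1 overlapped a WT EZH2 peak (7.69%), beside 10.6% of all KO EZH2 peaks of the chromosome and 60 of 289 KO peaks with such scores elsewhere (20.8%).

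Bins low for H3K27me3 in KO were mostly low for EZH2 as well. Among 132 bins with enough peaks of both kinds, 71 had a KO/WT ratio under 0.5 for H3K27me3 and for EZH2 alike, out of 81 that were low for H3K27me3 and 95 that were low for EZH2. Across these 132 bins the ratios had a Pearson r of 0.636 and a Spearman rho of 0.598. Neighbouring bins are not independent, and the lists of a genotype share an input library, so this is a description only. Peaks per bin of the antibodies had an r of 0.778 in KO and 0.702 in WT over 160 bins.

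**Figure D4:**
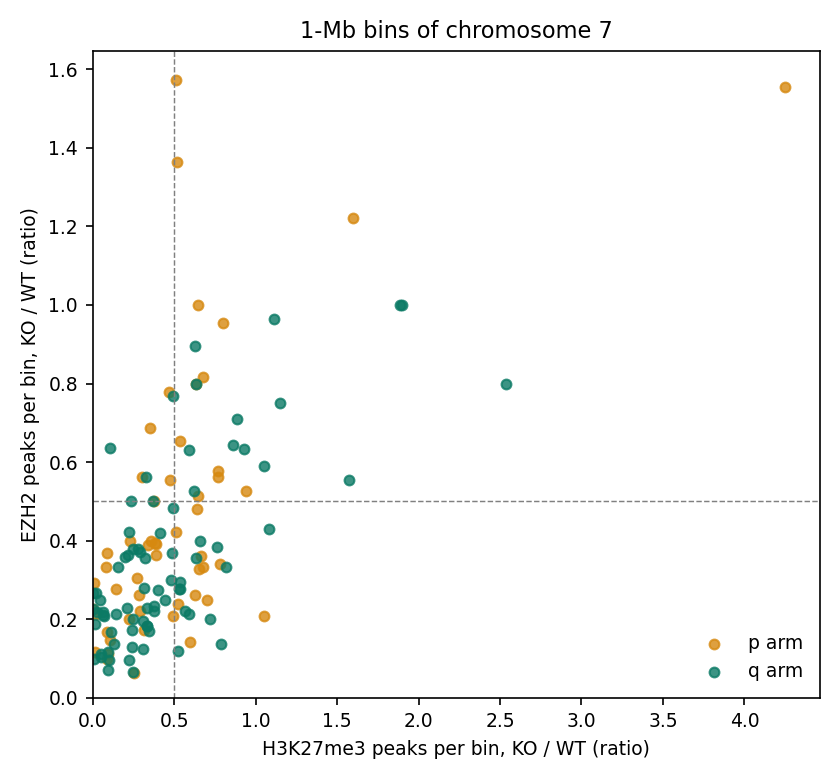
KO/WT ratio of H3K27me3 peaks (horizontal axis) against the KO/WT ratio of EZH2 peaks (vertical axis) for the 132 1-Mb bins of chromosome 7 with enough peaks of both antibodies, coloured by arm, with dashed lines at 0.5. Most points, 71 of 132, lie in the lower left corner where both ratios are under 0.5, and bins with more H3K27me3 peaks in KO than in WT are few.

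On chromosome 7 the H3K27me3 ratio was lowest where genes were fewest. Bins without a protein-coding gene (19 bins) held 144 H3K27me3 peaks in KO and 825 in WT, a ratio of 0.175. The ratio was 0.362 in the 70 bins with 1 to 4 genes, 0.438 in the 39 bins with 5 to 9, and 0.592 in the 32 bins with 10 or more. On the other chromosomes the same classes gave 0.688, 0.696, 0.830 and 0.981, so every class was lower on chromosome 7, the gene-free class most of all. Over all bins EZH2 showed no such order. Its ratios were 0.526, 0.363, 0.336 and 0.476 on chromosome 7 and 1.05, 0.642, 0.609 and 0.703 on the other chromosomes. The gene-free class was thus the highest in both. On chromosome 7 this class held 133 EZH2 peaks in KO and 253 in WT. Of these, 63 in KO and 7 in WT came from the bins from 58 to 61 Mb at the arm boundary. Its place as the highest class on chromosome 7 thus rests on those bins, and the order without them was not worked out.

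By place, peaks near start sites were the least reduced. Within 5 kb of a start site there were 249 H3K27me3 peaks in KO and 393 in WT (ratio 0.634). Inside genes and farther from starts there were 1490 in KO and 4172 in WT (ratio 0.357), and outside genes 3158 in KO and 7690 in WT (ratio 0.411). EZH2 followed the same order, with 141 in KO and 244 in WT near starts (ratio 0.578) and 461 in KO and 1543 in WT inside genes (ratio 0.299), and 911 in KO and 2176 in WT outside genes (ratio 0.419).

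Long genes carried much of the deficit inside genes. The chromosome has 58 protein-coding genes of 300 kb or more, and together they held 800 H3K27me3 peaks in KO and 2566 in WT, a ratio of 0.312. The shorter genes of the chromosome gave a ratio of 0.451, and genes of 300 kb or more on the other chromosomes 0.718. Of the 47 long genes with an H3K27me3 peak, 41 had fewer in KO (87.2%), against 66.3% of such genes over all chromosomes, and 5 had more (10.6%), against 26.5%. Among the shorter genes of chromosome 7 with a peak, 165 of 239 had fewer in KO (69.0%). MAGI2 held 22 H3K27me3 peaks in KO and 467 in WT, and 9 EZH2 peaks in KO and 81 in WT. KCND2 held 1 H3K27me3 peak in KO and 128 in WT, and DGKB, a diacylglycerol kinase gene, 1 in KO and 122 in WT. RELN, which encodes the extracellular guidance protein reelin, had 0 in KO and 28 in WT. Against these, CHN2, a gene for a Rac GTPase-activating protein, held 105 in KO and 101 in WT. PLXNA4, a semaphorin receptor gene, held 101 in KO and 100 in WT, so a long gene body was not always low. For EZH2, 52 of 57 long genes with a peak had fewer in KO (91.2%), against 68.4% over all chromosomes, and 4 had more (7.02%), against 18%.

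Fewer windows around gene starts were touched in KO than in WT, and large differences in coverage were more often deficits. The window was 5 kb to either side of the start site, or of both gene ends where the start was not in the RefSeq table, and the value is the percentage of the window covered by peaks. An H3K27me3 peak touched the windows of 142 genes in KO (15.1%) and 197 in WT (21.0%), against 14% in KO and 15.7% in WT over all chromosomes. EZH2 touched 83 in KO (8.85%) and 155 in WT (16.5%), against 7.78% in KO and 11.1% in WT. Windows touched in both genotypes numbered 103 for H3K27me3, which is 72.5% of the KO and 52.3% of the WT ones, beside 65.7% of KO and 58.6% of WT ones over all chromosomes. For EZH2 they numbered 54, which is 65.1% of KO and 34.8% of WT ones, beside 52.8% of KO and 37.1% of WT ones. H3K27me3 coverage was lower in KO by 10 percentage points or more in 51 of 938 genes (5.44%), against 1.15% of genes over all chromosomes, and higher by as much in 4 (0.426%), against 0.436%. EZH2 coverage was lower by 10 points in 15 genes (1.60%), against 0.365%, and higher in 4 (0.426%), against 0.175%. In bulk chromatin, fewer marked cells and less mark per cell cannot be told apart.

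PTPRZ1 had the largest H3K27me3 deficit among the 938 gene windows, with 16.7% of its window covered in KO and 59.3% in WT. THSD7A, a membrane protein known as an autoantigen in kidney disease, had 0% in KO and 39.8% in WT. SEMA3D, a secreted guidance ligand, had 12.5% in KO and 45% in WT. TMEM106B, a lysosomal membrane protein, had 0% in KO and 30.3% in WT, and KCND2 0% in KO and 25.9% in WT. THSD7A, TMEM106B and KCND2 thus had no H3K27me3 peak left in their windows in KO. CTTNBP2, a neuronal cortactin-binding protein, had 10.3% in KO and 39.6% in WT, and ADAM22, a synaptic receptor, 9.81% in KO and 38.4% in WT. SLC26A3 had 3.57% in KO and 32.5% in WT. FAM237B (21.8% in KO, 55.9% in WT) and SPMIP7, a sperm microtubule gene that shares its window with ZPBP (1.92% in KO, 29.2% in WT), completed the 10 genes named for this difference. Lower coverage did not always go with fewer peaks. The window of PTPRZ1 had 5 H3K27me3 peaks in KO and 5 in WT, and that of FAM237B 6 in KO and 3 in WT. The others of the 10 had fewer in KO. All 10 genes kept their direction in each of the 4 alternatives tried for genes, but 5 did not keep a difference of 10 points. Over the whole gene the difference was -5.90 points in PTPRZ1, -7.87 in THSD7A, -7.71 in TMEM106B and -4.21 in ADAM22, and with windows at both gene ends it was -4.03 in SEMA3D.

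Where H3K27me3 coverage was higher in KO, the differences were smaller and fewer of them kept their sign. DDC, the decarboxylase that makes dopamine and serotonin, had 14% in KO and 0% in WT, LOC124901818 had 12.6% in KO and 1.25% in WT, and DLX5, a homeobox gene, had 14.8% in KO and 6.30% in WT. These 3 were higher in KO under each of these alternatives. The other 7 were lower in KO under at least 1: CDHR3, a cadherin-related receptor (32.3% in KO, 14.6% in WT), CHN2 (24.5% in KO, 7.59% in WT), PLXNA4 (24.3% in KO, 15.6% in WT), GPR141 (15.6% in KO, 8.80% in WT), INMT (13.0% in KO, 5.69% in WT), ORC5 (11.9% in KO, 5.33% in WT) and MGAM2 (7.55% in KO, 0% in WT). For CDHR3, INMT and ORC5 it was the score threshold of 7 that turned the sign, for GPR141 and MGAM2 the window over the whole gene, for CHN2 that window and the window around both gene ends, and for PLXNA4 all of these.

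The 10 genes with the largest EZH2 deficit had CTTNBP2 in common with the H3K27me3 set, and GBX1, a homeobox gene, stood first. GBX1 had 16.3% of its window covered by EZH2 peaks in KO and 52.0% in WT. GRM8 had 10.3% in KO and 38.3% in WT, WNT2 had 5.61% in KO and 30.3% in WT, and DGKI, another diacylglycerol kinase gene, had 15% in KO and 35.4% in WT. WEE2, an oocyte kinase gene that shares its window with DENND11 (0% in KO, 20.9% in WT), TMEM229A (0% in KO, 19.2% in WT) and IQUB, a cilium gene (0% in KO, 12.6% in WT), had no EZH2 peak left in KO. CTTNBP2 had 1.87% in KO and 18.9% in WT, HECW1, a ubiquitin ligase gene, 13.4% in KO and 27.2% in WT, and PLXNA4 36.4% in KO and 51.3% in WT. PLXNA4 thus had less EZH2 coverage and, with the start-site window, more H3K27me3 coverage in KO. All 10 of these EZH2 deficits kept their direction in each alternative, but over the whole gene 7 of the 10 were under 10 points, with a median of -2.91 points over the 10. PLXNA4 then differed by -0.442 points, HECW1 by -0.544, GRM8 by -1.20 and DGKI by -1.21.

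EZH2 coverage was higher in KO at some genes, EVX1 and EN2 among them. EVX1 had 44.3% in KO and 19.3% in WT, the highest EZH2 coverage of the chromosome in KO, although neither genotype had an H3K27me3 peak in its window. EN2, the engrailed homeobox gene, had 26.7% in KO and 12.7% in WT. Both were higher in KO under each alternative, as were CLEC2L (9.18% in KO, 0% in WT) and ASB10 (6.49% in KO, 0% in WT). KLF14 had 25.2% in KO and 13.9% in WT, but was lower in KO among peaks with a score of 7 or more, as was the neuropeptide gene NPVF (7.93% in KO, 1.62% in WT). CPVL (33.2% in KO, 16.8% in WT), PDE1C (16.4% in KO, 8.84% in WT) and SLC26A5, the cochlear motor gene prestin (8.45% in KO, 1.99% in WT), were lower in KO over the whole gene. PAX4, a pancreatic islet factor, had 5.72% in KO and 0% in WT, and a difference of 0 under 1 alternative.

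**Figure D5:**
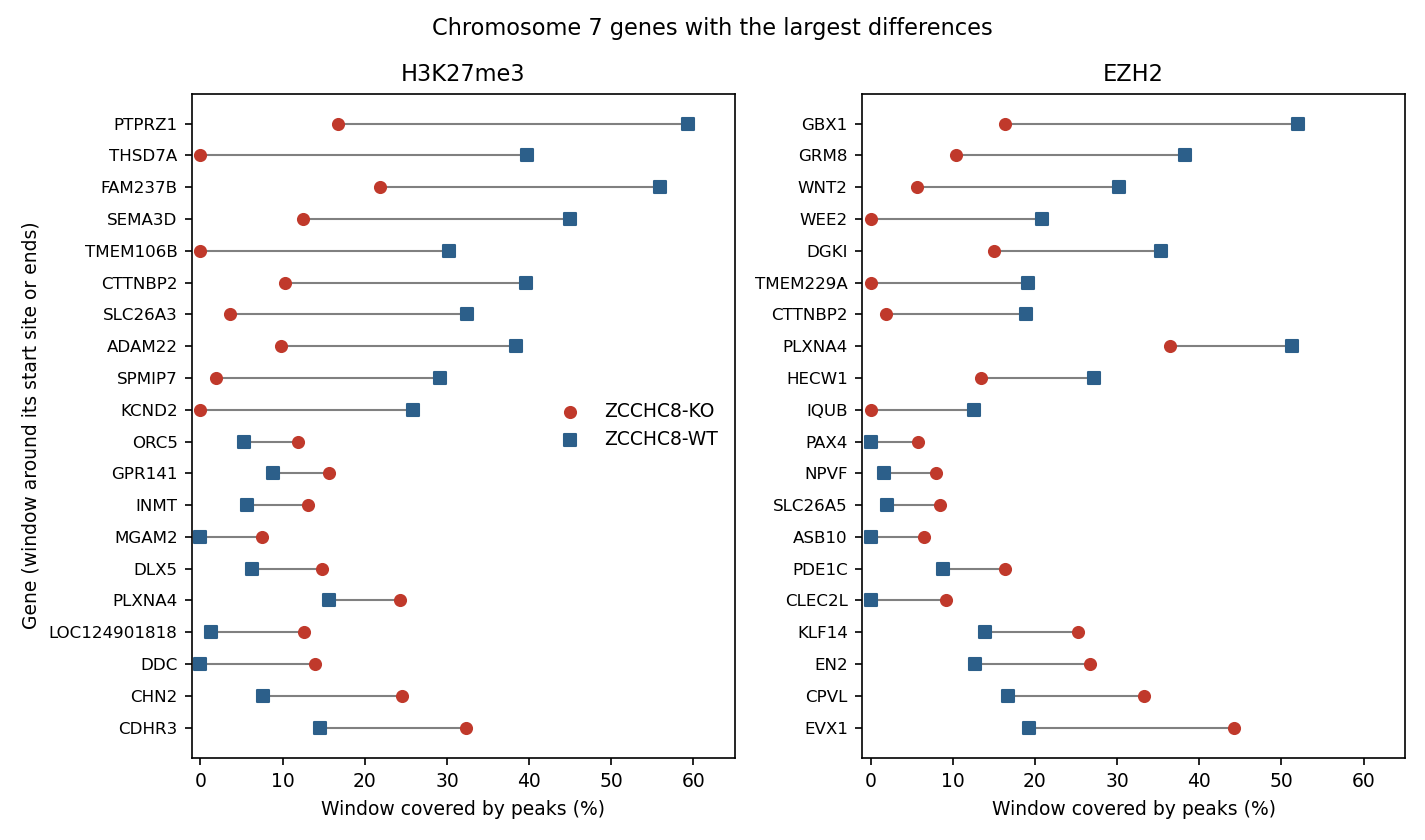
Percentage of the gene window covered by H3K27me3 peaks (left panel) and by EZH2 peaks (right panel) for the 10 chromosome 7 genes with the largest deficit in KO (upper rows) and the 10 with the largest excess (lower rows), with KO as circles and WT as squares. Deficits are larger than excesses for H3K27me3, where PTPRZ1 has 16.7% in KO and 59.3% in WT and CDHR3, the largest excess, 32.3% in KO and 14.6% in WT.

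KLF14 was the most covered gene for H3K27me3 in both genotypes, with 59.5% of its window in KO and 60.8% in WT. The EZH2 gene, which lies at chr7:148807383-148884291, had no peak of either antibody in its window in any of the 4 lists. Among 13 imprinted genes, 7 were touched by H3K27me3 in KO (53.8%) and 3 in WT (23.1%). Over all genes of chromosome 7 the shares were 15.1% in KO and 21.0% in WT. Mean coverage of the 13 was nearly level, at 8.59% in KO and 8.16% in WT, with a median change of 0. By 10 points or more, 1 of them was higher in KO and 1 lower. Beside DDC the 7 touched in KO included COPG2, a coatomer gene next to MEST, with 3.70% in KO and 0% in WT. CALCR, the calcitonin receptor gene, went the other way, with 17.6% in KO and 31.8% in WT.

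Neuronal, kidney and chemoreceptor genes had more members touched in WT than in KO, as did the genes of chromosome 7 in all, whose KO/WT ratio of touched windows was 0.721 for H3K27me3 and 0.535 for EZH2. Of 26 synaptic and neuronal genes, 8 were touched by H3K27me3 in KO and 17 in WT, a ratio of 0.471. Of the 26, 7 were lower in KO by 10 points or more (26.9%, beside 5.44% over the chromosome) and none was higher by as much. The median change over the 26 was -0.495 percentage points, beside a median of 0 over all 19974 genes. Of 19 kidney tubule and epithelial transport genes, 5 were touched in KO and 10 in WT (a ratio of 0.5), 5 were lower by 10 points (26.3%) and none higher, with a median change of 0. CFTR, at 0% in KO and 25.3% in WT, was among them. SLC13A4, a sulfate transporter gene, had 14.8% in KO and 8.94% in WT. For EZH2, SLC26A4, which encodes pendrin, had 0% in KO and 11.1% in WT.

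Of 15 olfactory receptor genes, 6 were touched by H3K27me3 in KO and 9 in WT, with 3 lower by 10 points and a median change of -0.880 points. Their ratio of 0.667 was near that of the chromosome. OR2F1 had 0% in KO and 24.9% in WT, and OR2A14 had 2.45% in KO and 27.2% in WT, although the near-identical OR2A copies make its reads uncertain. Of 9 bitter taste receptor genes, 3 were touched in KO and 5 in WT (ratio 0.600), with a median change of -1.72 points. TAS2R41 had 0% in KO and 11.7% in WT. Reads from receptor copies of either family can be placed on more than 1 of them.

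Developmental regulators outside the HOXA cluster were touched often in both genotypes. Of 27 developmental transcription factor genes outside HOXA, 9 were touched by H3K27me3 in KO (33.3%) and 12 in WT (44.4%). That ratio of 0.750 was close to the 0.721 of all genes of the chromosome. EZH2 touched 9 in KO and 9 in WT (33.3% each), beside 8.85% in KO and 16.5% in WT over all genes of the chromosome. GBX1 was the 1 member lower by 10 points for H3K27me3, at 10.8% in KO and 27.5% in WT. EN2 and KLF14 were the members higher by 10 points for EZH2. DLX6 had 0% H3K27me3 coverage in KO and 9.25% in WT, the opposite of its neighbour DLX5. In the HOXA cluster with EVX1, 12 genes, H3K27me3 touched 1 gene in KO and 1 in WT (8.33% each). Over the chromosome the shares were 15.1% in KO and 21.0% in WT. The gene was HOXA13, with 1.95% covered in KO and 2.85% in WT, so the H3K27me3 peaks of this stretch lay around the cluster and not on its starts. EZH2 touched 1 of the 12 in KO (8.33%), EVX1, and 3 in WT (25%).

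The remaining lists stand beside the same chromosome-wide shares for H3K27me3, 15.1% of genes touched in KO and 21.0% in WT. Of 12 semaphorin and axon guidance genes, 4 were touched by H3K27me3 in KO (33.3%) and 6 in WT (50%), a ratio of 0.667, and NRCAM had 9.61% in KO and 26.0% in WT. Of 18 signalling genes, 2 were touched in KO (11.1%) and 6 in WT (33.3%). IGFBP1, which encodes a secreted binder of insulin-like growth factors, had 0% in KO and 12.9% in WT. SHH, the hedgehog ligand, was level for EZH2, with 17.5% in KO and 16.3% in WT. Of 37 zinc finger genes, 3 were touched by H3K27me3 in KO (8.11%) and 2 in WT (5.41%). EZH2 touched 1 of the 37 in KO (2.70%) and 6 in WT (16.2%). Over all genes of chromosome 7 the EZH2 shares were 8.85% in KO and 16.5% in WT. Of 15 oncogenes and chromatin regulators, 1 was touched by H3K27me3 in KO (6.67%) and 3 in WT (20%). None of 24 housekeeping genes was touched by either antibody in any of the lists.

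Promoters of marked genes were poorer in CG than those of unmarked ones. The median was 12 CG in 250 bases among the 87 genes touched by H3K27me3 in both genotypes, 7 among the 33 touched in KO only, 10 among the 83 touched in WT only and 19 among the 596 touched in neither. For EZH2 it was 18 among the 42 genes touched in both, 7 among the 25 touched in KO only, 14 among the 82 touched in WT only and 18 among the 650 touched in neither. EZH2 windows touched in both genotypes thus had the same median as untouched ones. Of all 799 promoters, 57.1% held 15 CG or more. This share was 64.3% for EZH2 in both genotypes and 58.6% for EZH2 in neither. For H3K27me3 it was 46.0% in both and 62.4% in neither.

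H3K27me3 domains were fewer and narrower in KO. They are built from the peaks, so their number and width depend on the number of peaks given above. A domain named as the widest of a list was chosen by the peaks of that list, which favours its coverage there. With peaks joined across gaps of up to 3 kb, H3K27me3 formed 2656 domains in KO and 5026 in WT. Of 10 kb or more there were 57 in KO and 276 in WT, and of 20 kb or more 5 in KO and 49 in WT. EZH2 formed 1239 domains in KO and 3073 in WT, of which 6 in KO and 6 in WT reached 10 kb. The widest WT H3K27me3 domain was the 72.3 kb at chr7:85043310-85115635 in SEMA3D, where peaks covered 15.8% in KO and 45.8% in WT. The second, of 52.0 kb, at chr7:78459056-78511067 in MAGI2, had 0.373% covered in KO and 50.02% in WT. The MAGI2 domain held 1 peak in KO and 43 in WT, and the SEMA3D domain 26 in KO and 49 in WT. The third lay at KLF14, with 40.8% in KO and 49.4% in WT. The widest KO domain, 33.9 kb at chr7:130719151-130753086, was also the KLF14 one, with 55.3% in KO and 58.8% in WT. For EZH2 the widest KO domain, 13.9 kb, lay at EN2, with 25.1% covered in KO and 13.7% in WT, and the widest WT domain, 17.3 kb, at CNPY1 next to it, with 18.3% in KO and 28.8% in WT.

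Most WT peaks of the chromosome had no KO peak at the same place. Of H3K27me3 peaks, 33.3% of those in KO (32.0 to 34.7) overlapped a WT peak by at least 1 bp, and 12.6% of those in WT (12 to 13.2) overlapped a KO peak. On the other chromosomes these shares were 20.5% of KO and 16.4% of WT peaks. For EZH2 they were 10.6% of KO peaks (9.13 to 12.3) and 4.06% of WT peaks (3.47 to 4.72) on chromosome 7, and 7.74% of KO and 5.28% of WT peaks elsewhere. Wide peaks were shared more often. Of H3K27me3 peaks of 1 kb or more, 69 of 76 in KO (90.8%) and 253 of 485 in WT (52.2%) overlapped a peak of the other genotype, beside 79.5% in KO and 70.5% in WT elsewhere. All 12 KO EZH2 peaks of 1 kb or more overlapped a WT peak, as did 17 of 25 in WT with KO (68%), beside 74.5% in KO and 82.8% in WT elsewhere. The overlap that repeat libraries of 1 genotype would show is unknown.

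EZH2 and its mark overlapped at a minority of EZH2 peaks. An H3K27me3 peak of the same genotype overlapped 257 of 1513 EZH2 peaks in KO (17.0%, 15.1 to 19.0) and 816 of 3963 in WT (20.6%, 19.3 to 21.9). On the other chromosomes the shares were 19.2% in KO and 13.0% in WT, so chromosome 7 stood above them in WT and below them in KO. EZH2 peaks found in both genotypes were the better marked. Of the 161 WT EZH2 peaks that met an EZH2 peak of KO, 81 (50.3%) carried WT H3K27me3, and 45 of these 81 (55.6%) also overlapped KO H3K27me3. Of the 3802 without a KO EZH2 peak, 735 (19.3%) carried WT H3K27me3, and 156 of these (21.2%) overlapped KO H3K27me3. The shared peaks were wider, with a median of 357 bp, against 211 bp.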

How the data were processed

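Chromatin of ACHN cells was precipitated with an H3K27me3 or an EZH2 antibody and read as paired ends, per the labels' protocols. Groups follow the genotype and title labels. The 6 samples gave 4 peak lists, with 2 inputs as controls. Per the submitters' processing notes, the tools included cutadapt 1.9.3 and Bowtie2 2.2.4, with hg38 as the build. The sources used here name no peak caller and give no read depth. Intervals are exact Clopper-Pearson 95% intervals on numbers of peaks, which cover counting error only. Each list was called per library against the input of its genotype, per the deposited names, which carry a p threshold of 1e-3.

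The deposited lists give position, length in bp (which makes the coordinates 1-based) and the authors' score, of undefined meaning. On chromosome 7 a peak stood on 1 to 72 identical lines and was counted once. Peaks were placed by midpoint in 1-Mb bins, and a bin entered with 10 peaks over both genotypes. A bin counted as different at a KO/WT ratio under 0.5 or over 2, and a gene at 10 percentage points of its window. The work used SciPy 1.17.1, pandas 2.3.3, NumPy 2.4.6 and matplotlib 3.10.9 under Python 3.11.15, and the routines were tested on simulated data.

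With 1 library per group no test was run and no p-value is given. The arms were split at 60 Mb because no genome was used here. Start sites came from the RefSeq promoter table for 799 of 938 genes, and both gene ends served for the rest. The members, lists, rule and tests were chosen with earlier results of these data known. Genes named are, per antibody, the 10 whose covered share was most below and most above WT in KO (genes with a common window once), the 2 members of each list at either extreme (not all are printed), the most covered gene of each list and EZH2. Bins and domains named are the 5 at either extreme or the widest 5 (again a selection); runs of bins, long genes and blocks were chosen after their values were seen. Alternatives changed the score, width or size of the lists, repeated lines, covered length, bins, fold, overlap, gene window and stitching; the both-ends window for all genes and the arms at a score of 10 were added after seeing the data.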

Additional observations from a re-analysis of the deposited data

How the results depend on the processing

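Of 280 alternative values over 64 results, 116 stayed close to the value above, 148 moved and 16 changed sign; the cause was not tested. No paired analysis was possible because there was 1 library per group. Depth limits are unknown, and the score threshold lowers KO lists more than WT lists by construction, since KO scores are lower.

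For H3K27me3 the KO/WT ratio of chromosome 7 was 0.152 at a score of 7 or more, 0.0393 at 10 or more, 0.472 with lists of equal size, 0.367 with repeated lines counted, 0.271 for peaks of 500 bp or more and 0.342 by covered length. For EZH2 these were 0.108, 0.0683, 0.523, 0.303, 0.410 and 0.408. At a score of 7 or more chromosome 7 was the fourth lowest for H3K27me3 and the third for EZH2.

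The chromosome's share of the H3K27me3 list was 7.52% in KO and 15.2% in WT at a score of 7, 5.14% in KO and 22% in WT at 10, 7.49% in KO and 14.6% in WT with repeated lines, and 7.34% in KO and 19.4% in WT at 500 bp, and in WT 14.9% with lists of equal size and 15.2% by length. For EZH2 it was 6.09% in KO and 18.6% in WT at 10 and 8.53% in KO and 16.2% in WT with repeated lines, and in WT 14.7% at 7, 14.8% with equal lists, 17.8% at 500 bp and 13.5% by length.

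H3K27me3 ratios were 0.177 on p and 0.136 on q at a score of 7, 0.0449 and 0.0363 at 10, 0.556 and 0.417 with equal lists, and 0.418 and 0.295 by length. EZH2 ratios were 0.126 on p and 0.0979 on q at 7, 0.0896 and 0.0591 at 10, and 0.622 and 0.467 with equal lists. With 58 to 62 Mb left out, the EZH2 ratios were 0.412 on p and 0.338 on q.

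Low H3K27me3 bins numbered 143 of 225 at 500 kb (63.6%), 16 of 31 at 5 Mb (51.6%) and 43 of 135 under a ratio of 0.25 (31.9%), and low EZH2 bins 153 of 219 (69.9%), 22 of 32 (68.8%) and 54 of 141 (38.3%). The share of low bins was 52.3% for H3K27me3 and 54.4% for EZH2 with equal lists, and 95.2% and 97.4% at a score of 7. High H3K27me3 bins numbered 0 at a score of 7, 4 at 500 kb, 0 at 5 Mb and 1 over a ratio of 4, and high EZH2 bins 1 at a score of 7, 5 with equal lists and 6 at 500 kb.

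The share of WT peaks overlapping KO was 6.93%, 14.1% and 9.29% for H3K27me3, and 2.74%, 5.01% and 2.80% for EZH2, at a score of 7, with equal lists and with an overlap of 50% of the shorter peak. EZH2 peaks with H3K27me3 made up 12.3% in KO and 15% in WT at that overlap, and 34.1% in KO and 42.1% in WT within 1 kb.

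Genes lower by 10 points for H3K27me3 numbered 32 over whole genes, and 80 were lower by 5 points; for EZH2 4 and 31, and 8 with both gene ends. Genes higher for H3K27me3 numbered 2 at a score of 7, 1 over whole genes, 17 at 5 points and 1 with both ends, and for EZH2 2, 2, 10 and 2. The ratio of stitched domains was 0.229 for H3K27me3 and 0.108 for EZH2 at a score of 7, and 0.667 and 0.449 across 10 kb.

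Sign changes, as KO minus WT in percentage points, were for H3K27me3 CDHR3 -4.42, PLXNA4 -4.86, INMT -2.33 and ORC5 -0.450 at a score of 7; CHN2 -1.13, PLXNA4 -0.542, MGAM2 -0.911 and GPR141 -0.505 over the whole gene; and CHN2 -13.5 and PLXNA4 -1.59 with both ends. For EZH2 they were KLF14 -1.36 and NPVF -1.62 at a score of 7, CPVL -1.39, PDE1C -0.927 and SLC26A5 -0.0493 over the whole gene, and PDE1C -2.77 with both ends.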

Other observations

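Some microRNA genes of chromosome 7 had a peak nearby. Of 68 hairpins in the RefSeq table, 6 had an H3K27me3 peak within 5 kb in KO and 6 in WT, and 3 had an EZH2 peak in KO and 4 in WT. Of the windows of protein-coding genes on the chromosome, H3K27me3 touched 15.1% in KO and 21.0% in WT, and EZH2 8.85% in KO and 16.5% in WT. Hairpins of the other chromosomes were not counted. The hairpins marked by H3K27me3 in KO but not in WT were MIR148A, with 256 bp of its window covered in KO and 0 bp in WT, and MIR335, which lies within the imprinted MEST gene, with 768 bp in KO and 0 bp in WT. MIR592, inside GRM8, had 0 bp in KO and 733 bp in WT. MIR3943, inside HECW1, had 427 bp in KO and 2283 bp in WT. MIR653 and MIR489, neighbours inside CALCR, had an EZH2 peak of 439 bp in KO and 0 bp in WT. The hairpins were named after their values were seen.

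For H3K27me3, overlap between genotypes by arm depended on the genotype it was counted in, whereas for EZH2 it was higher on q in both. Of KO H3K27me3 peaks, 33.5% on p and 33.2% on q overlapped a WT peak. Of WT H3K27me3 peaks, 14.8% on p (13.8 to 15.9) and 11.1% on q (10.4 to 11.9) overlapped a KO peak. For EZH2, 6.74% of KO peaks on p and 13.6% on q overlapped a WT peak, and 2.97% of WT peaks on p (2.17 to 3.97) and 4.71% on q (3.91 to 5.62) overlapped a KO peak. The highest-scoring H3K27me3 peak of the chromosome was the same in both genotypes and lay close to the p-arm end, at chr7:23961-24724 with a score of 32 in KO and at chr7:23982-24675 with a score of 40 in WT.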
